A study of Homo sapiens with 10 samples.

Results

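The genes described here are 4 heavy chains of human leukocyte antigen (HLA) class I (HLA-B, HLA-C, HLA-E and HLA-F), their shared light chain B2M, and NLRC5, which regulates them. They were taken by gene symbol, are 6 of the 32738 genes in the count tables, and were measured by single-cell RNA sequencing (scRNA-Seq) in HCT-116, a long-established line grown from a human colorectal carcinoma. The tested group was DOX: cells given 200 nM doxorubicin, an anthracycline that damages DNA, for 24 h, washed, and left to recover for 6 d. The control group was untreated cells of the same line. Each group was 2 libraries (replicates 1 and 2), and no source used here states that they were independent cultures, so p-values measure the spread between these libraries only.

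A class I molecule is a heavy chain bound to β2-microglobulin, the product of B2M, and holds a peptide from inside the cell at the surface, where cytotoxic T cells read it. HLA-B and HLA-C are classical, highly variable heavy chains. HLA-E mainly holds peptides cut from the leader sequences of other class I chains and is read by receptors of natural killer cells, and HLA-F is a non-classical chain seen by receptors of the same cells. NLRC5 is a NOD-like receptor family protein that acts in the nucleus as the class I transactivator: it does not bind DNA well by itself but joins RFX, CREB/ATF and NF-Y proteins at a composite element of class I promoters. Interferons raise class I expression through IRF and STAT factors at an interferon-stimulated response element (ISRE) next to it.

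In hg19, the build of the files, HLA-B lies on chromosome 6 at 31321649 to 31334844 and HLA-C at 31236526 to 31239907, both on the minus strand. HLA-E (30457286 to 30461971) and HLA-F (29690552 to 29706305) lie on the plus strand of chromosome 6. B2M lies on chromosome 15 at 45003556 to 45011049 and NLRC5 on chromosome 16 at 57023397 to 57117443, both on the plus strand, and another annotated gene overlaps NLRC5 on the opposite strand. The class I heavy chain genes are near-identical over long stretches and differ between people, and reads of HCT-116 alleles were aligned to the reference alleles, so the split of reads among the heavy chains is uncertain.

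Promoter sequence was available for 4 of the 6 genes in the RefSeq table used (GRCh38.p14): HLA-B, HLA-C, HLA-F and B2M. HLA-E and NLRC5 had no entry. The stretches before the RefSeq start are shown because the regulator NLRC5 and the interferon factors are known to act there. Each one matched hg19 exactly once, at chr6:31324998-31325126 (minus strand) for HLA-B, chr6:31239911-31240035 (minus) for HLA-C, chr6:29691041-29691168 (plus) for HLA-F and chr15:45003556-45003680 (plus) for B2M. They are written 5′ to 3′ along the gene, and capitals mark 3 kinds of letters on either strand: an ISRE (GAAANNGAA or GAANNGAAA), the core letters bound by CREB/ATF proteins (TGACG) and the CCAAT box of NF-Y (ATTGG).
HLA-B: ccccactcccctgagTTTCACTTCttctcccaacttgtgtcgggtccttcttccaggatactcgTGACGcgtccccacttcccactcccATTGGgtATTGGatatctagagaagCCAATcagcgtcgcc
HLA-C: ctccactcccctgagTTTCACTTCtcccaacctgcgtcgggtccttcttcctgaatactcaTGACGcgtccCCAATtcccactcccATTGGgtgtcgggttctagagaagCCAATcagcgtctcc
HLA-F: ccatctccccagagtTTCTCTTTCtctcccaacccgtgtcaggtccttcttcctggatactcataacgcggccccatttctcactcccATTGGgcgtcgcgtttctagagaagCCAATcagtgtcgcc
B2M: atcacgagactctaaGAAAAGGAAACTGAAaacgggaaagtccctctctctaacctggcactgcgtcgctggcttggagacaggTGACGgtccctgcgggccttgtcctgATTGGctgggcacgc

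Each stretch was cut to begin just before its first ISRE match and to end just after its last CCAAT box. That the ISRE letters come first is therefore set by the cut. They started at -155 in HLA-B, -151 in HLA-C, -155 in HLA-F and -144 in B2M, where -1 is the base before the RefSeq start. HLA-C held another CCAAT box before its ISRE, at -192, outside the stretch shown. In B2M 2 matches of the first form overlapped, the second one starting at -138. TGACG followed at -106 in HLA-B, -105 in HLA-C and -75 in B2M, and was not found in the HLA-F window. Of 35116 RefSeq promoters searched over the same 250 bases, 12.4% held either ISRE form, 21.2% TGACG, 32.0% ATTGG and 0.746% all of these together. A match describes letters only, and no binding was measured.

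The libraries held 159897846 and 170495465 UMIs (unique molecular identifiers, each 1 captured RNA molecule) in DOX, and 317489299 and 209547139 in untreated cells. The authors name a forced count of 8000 barcodes for DOX libraries only. Most of these barcodes held few UMIs. Barcodes with a mitochondrial share under 8% were therefore put in 3 depth classes: shallow (under 2000 UMIs), intermediate (2000 to under 20000) and deep (20000 or more). The shallow class held 4338 and 4243 DOX and 140 and 71 untreated barcodes, the intermediate class 939 and 606 DOX and 327 and 82 untreated barcodes, and the deep class 1307 and 1080 DOX and 3572 and 2137 untreated barcodes. Before the mitochondrial limit the deep class held 1886 and 1731 DOX and 3967 and 2310 untreated barcodes. The limit thus took out a larger part of the deep DOX barcodes than of the untreated ones. Any pair of libraries shared 5 to 24 barcode sequences. The marker values that follow are of the deep class, where the damage response genes CDKN1A, GDF15 and MDM2 rose together (3 of 3 called, median log2 fold change 2.74). Of 8 colon epithelial markers, all were detected, at a summed 6180 to 6526 CPM (a gene's UMIs divided by all UMIs of the summed class, times 1000000) in DOX and 3759 to 4161 in untreated libraries, and 7 rose and 1 fell. All 8 leukocyte markers were under 1 CPM in each library, with sums of 1.03 to 1.13 in DOX and 0.271 to 0.286 in untreated libraries; 2 of the 3 that could be tested rose. NKG7 was at 0 throughout, which allows up to 0.0103 to 0.0293 CPM. Among 7 stromal markers, sums were 5.27 to 5.92 in DOX and 3.04 to 3.28 in untreated libraries, mostly COL1A1, and 2 of 3 tested rose. The part of these markers in the class I values was not tested.

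In deep barcodes all 6 genes were higher in DOX cells than in untreated cells. The fitted fold was 2.13 for HLA-B, the largest of the 6 here and under all 17 alternatives, and 1.43 to 1.78 for the other genes. Levels below are in CPM, while folds and log2 fold changes are on the scale of TMM (trimmed mean of M values) factors, which lowered every log2 fold change in this comparison by 0.17 relative to the plain share of UMIs.

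Among the classical chains, HLA-B gave 267 and 251 CPM in DOX replicates 1 and 2, against 109.6 and 107 in untreated replicates 1 and 2. The 2 libraries of each group lay close together, and the groups did not overlap. Its log2 fold change was 1.09 ± 0.07 (SE, n = 2 libraries each), with an adjusted p of 1.13e-05 by edgeR's quasi-likelihood test. HLA-C gave 194 and 201 CPM in DOX and 120.5 and 116 in untreated libraries, again without overlap, and its log2 fold change of 0.57 ± 0.07 (adjusted p = 2.2e-04, edgeR) was about that of B2M. The ratio of HLA-B to HLA-C UMIs was 1.38 and 1.25 in DOX and 0.910 and 0.921 in untreated libraries, so the balance between both chains shifted to HLA-B. With 2 libraries against 2 an exact permutation test of such a ratio cannot go below p = 0.33, and none was run.

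Of the non-classical chains, HLA-E gave 46.6 and 46.3 CPM in DOX and 28.1 and 29.6 in untreated libraries. It rose by a log2 fold change of 0.52 ± 0.06 (adjusted p = 9.63e-05, edgeR). HLA-F was scarce, at 5.12 and 6.16 CPM (532 and 630 UMIs) in DOX and 2.90 and 2.72 (844 and 541 UMIs) in untreated libraries. The groups did not overlap for either gene, and HLA-F rose by 0.83 ± 0.11 (adjusted p = 3.15e-04, edgeR).

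The light chain B2M, the partner of the heavy chains in a class I molecule, gave 552 and 524 CPM in DOX and 349 and 308 in untreated libraries. Its log2 fold change was 0.54 ± 0.10 (adjusted p = 0.00169, edgeR), and 0.28 (adjusted p = 0.0251) with no limit on the mitochondrial share. The summed UMIs of HLA-B, HLA-C, HLA-E and HLA-F per B2M UMI were 0.930 and 0.963 in DOX and 0.747 and 0.832 in untreated libraries. Heavy chain UMIs thus rose further than those of the light chain in both DOX libraries.

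The regulator NLRC5 was rare but higher in DOX, at 6.78 and 8.08 CPM (704 and 827 UMIs), against 3.61 and 4.14 (1053 and 825 UMIs) in untreated libraries. It rose by 0.77 ± 0.10 (adjusted p = 2.14e-04, edgeR). A single barcode of DOX replicate 2 held 55 of its 827 UMIs; without the barcode richest in NLRC5 in each library the log2 fold change was 0.74 (adjusted p = 1.75e-04, edgeR). All 6 genes were thus called higher in deep barcodes, where 28.2% of 21563 genes tested were called higher and 26.4% lower. On the plain share of UMIs all 6 were also called, and 39.3% of genes were higher and 15.1% lower. The share of all genes whose groups did not overlap was not counted.

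**Figure D1:**
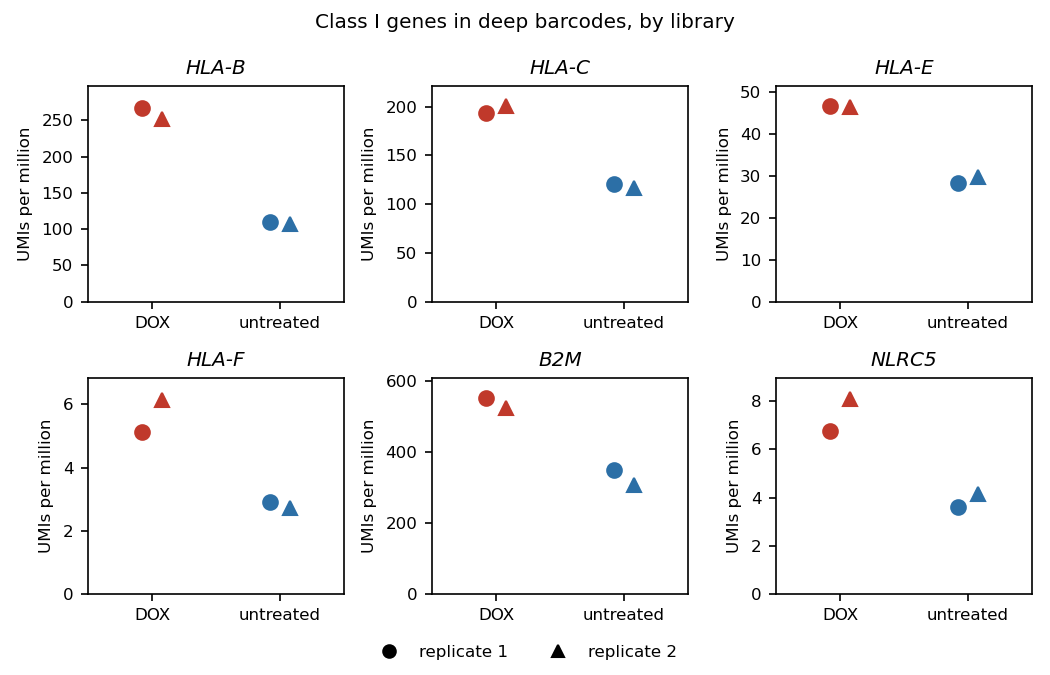
CPM in deep barcodes (vertical axes, each from 0) for the 6 genes, with 1 point per library (circles replicate 1, triangles replicate 2) and DOX left of untreated. In every panel both DOX points lie above both untreated points, an order whose share over all genes was not counted. HLA-B shows the widest gap relative to its level, 267 and 251 against 109.6 and 107.

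Genes of the wider pathway were taken from lists chosen with earlier results of these data in view, so their counts describe and do not test. Of 14 genes of peptide processing and loading, 9 rose, 3 fell and 2 did not pass the test, with a median log2 fold change of 0.54 (0.04 over all genes tested). PSMB9, a catalytic subunit of the immunoproteasome, which cuts proteins into peptides for class I, gave 17.6 and 16.3 CPM in DOX and 3.83 and 3.46 in untreated libraries (log2 fold change 2.04 ± 0.09, adjusted p = 1.27e-06, edgeR). TAP1, a subunit of the pump that carries peptides into the endoplasmic reticulum, gave 33.0 and 27.6 in DOX and 12.3 and 11.2 in untreated libraries, and ERAP2, an aminopeptidase that trims them there, 5.16 and 4.72 in DOX and 1.78 and 1.86 in untreated libraries. Both rose, by 1.20 ± 0.10 (TAP1) and 1.27 ± 0.10 (ERAP2). The 3 that fell were PSMB10, another immunoproteasome subunit, by 0.34, and the chaperones CALR and CANX, by 0.45 and 0.26 on the log2 scale.

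Of 15 genes for factors that act at class I promoters, 4 rose, 7 fell and 4 did not pass the test (median log2 fold change -0.15). The 4 were IRF1 and IRF2, which bind the ISRE, RFX5, the DNA-binding part of the RFX complex, and the acetyltransferase KAT2B. IRF1 gave 22.5 and 22.2 CPM in DOX and 11.7 and 11.9 in untreated libraries (log2 fold change 0.75 ± 0.06, adjusted p = 2.37e-05, edgeR), and IRF2 rose by 0.60 ± 0.06. EZH2, a histone methyltransferase that can silence class I genes, gave 82.4 and 89.5 in DOX and 120.04 and 132 in untreated libraries and fell by 0.72 ± 0.06 on the log2 scale. The RFX subunit RFXAP fell by 0.36 on the log2 scale, and RFXANK, another subunit, did not pass (0.02 ± 0.08). For the CREB/ATF proteins, ATF1 fell by 0.40 and CREB1 did not pass (-0.11 ± 0.05). Of the NF-Y subunits, NFYB fell by 0.52 and NFYC by 0.33, and NFYA did not pass (-0.15 ± 0.06, adjusted p = 0.0707, edgeR).

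In the interferon signal chain, the factors STAT2 and IRF9, which bind together at the ISRE, rose, with log2 fold changes of 0.90 ± 0.07 for STAT2 and 2.14 ± 0.14 for IRF9. The receptor chains IFNGR2 and IFNAR2 and the kinase TYK2 fell, each by 0.37 or less on the log2 scale. Of 5 NF-κB genes, 3 rose (RELB by 0.60, NFKB2 by 0.44 and NFKBIA by 0.33) and 1 fell (NFKB1, by 0.22).

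Among 9 other proteins that pair with β2-microglobulin, 4 could be tested and 2 rose: MR1, which holds vitamin B metabolites, by 1.09 ± 0.09, and FCGRT, an antibody receptor, by 0.55 ± 0.14. HFE, which regulates iron uptake, gave 4.76 and 5.50 CPM in DOX and 4.40 and 4.71 in untreated libraries (log2 fold change 0.00 ± 0.09, adjusted p = 0.983, edgeR). Class II genes were low, summing to 25.8 and 25.2 in DOX and 13.1 and 11.8 in untreated libraries, and 8 of 9 tested rose (median 0.83), by 0.53 (HLA-DMA) to 1.99 (CD74) on the log2 scale. HLA-DRB1, an antigen-presenting β chain, had the smallest adjusted p (1.72 ± 0.13, adjusted p = 1.99e-05, edgeR). CIITA, the class II counterpart of NLRC5, was at 0.260 and 0.244 CPM in DOX and 0.172 and 0.181 in untreated libraries and did not pass the test (log2 fold change 0.35 ± 0.28, adjusted p = 0.325, edgeR). Of 5 relatives of NLRC5 tested, CIITA among them, NLRX1 rose by 0.31, NOD1 fell by 0.24 and 3 did not pass.

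How the rise was spread over cells was examined at equal depth, with every deep barcode thinned to 20000 UMIs by drawing without replacement. The median HLA-B count per barcode was 4 and 4 UMIs in DOX and 2 and 2 in untreated libraries, and the count at the 90th percentile was 10 and 9 in DOX and 4 and 4 in untreated libraries. Above 5 UMIs, the 95th percentile of the pooled untreated barcodes, lay 34.4% and 30% of DOX and 4.00% and 3.46% of untreated barcodes. Most DOX barcodes thus still lay within the untreated range for HLA-B. For B2M, whose untreated 95th percentile was 13 UMIs, 30.3% and 23.0% of DOX and 4.82% and 2.90% of untreated barcodes lay above it.

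HLA-C had medians of 3 and 4 UMIs in DOX and 2 and 2 in untreated libraries, and 15.1% and 15.2% of DOX against 2.02% and 1.97% of untreated barcodes lay above its untreated 95th percentile of 6 UMIs. HLA-E, at mean counts of 0.930 and 0.914 UMIs in DOX and 0.567 and 0.599 in untreated libraries, was found in 55.8% and 54.6% of DOX and 42.6% and 44.1% of untreated barcodes. HLA-F was found in 10.3% and 11.8% of DOX and 6.16% and 5.76% of untreated barcodes, and NLRC5 in 11.6% and 13.7% of DOX and 6.58% and 7.16% of untreated barcodes. At this depth a barcode without a UMI of either rare gene says little about that cell. No cell type that lacks class I genes was in the culture, so no background share for free RNA could be set beside these.

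The spread of counts over cells was wider in both DOX libraries for HLA-B and B2M by both measures used, which differed for other genes. The variance of HLA-B divided by its mean (1 for counting noise alone) was 3.71 and 3.39 in DOX and 1.22 and 1.29 in untreated libraries, and that of B2M was 4.85 and 4.48 in DOX and 1.76 and 1.73 in untreated libraries. This ratio grows with the mean for the same relative spread, so the coefficient of variation was computed too. It was 0.848 and 0.848 for HLA-B in DOX and 0.745 and 0.778 in untreated libraries, and for B2M it was 0.652 and 0.649 in DOX and 0.497 and 0.522 in untreated libraries. HLA-E (1.21 and 1.26 in DOX, 1.36 and 1.34 in untreated libraries) and HLA-F (3.02 and 2.90 in DOX, 3.96 and 4.12 in untreated libraries) had a lower coefficient in DOX. The coefficient was mixed for HLA-C (0.802 and 0.681 in DOX, 0.699 and 0.705 in untreated libraries) and for NLRC5 (3.07 and 4.23 in DOX, 3.92 and 3.83 in untreated libraries). The variance of HLA-C divided by its mean was 2.53 and 1.86 in DOX and 1.19 and 1.19 in untreated libraries. That of NLRC5 was 1.27 and 3.39 in DOX and 1.09 and 1.17 in untreated libraries. The summed heavy chains and B2M ranged from 10 UMIs at the 10th percentile to 35.4 and 33 at the 90th in DOX, and from 7 and 6 to 19 and 17 in untreated libraries.

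**Figure D2:**
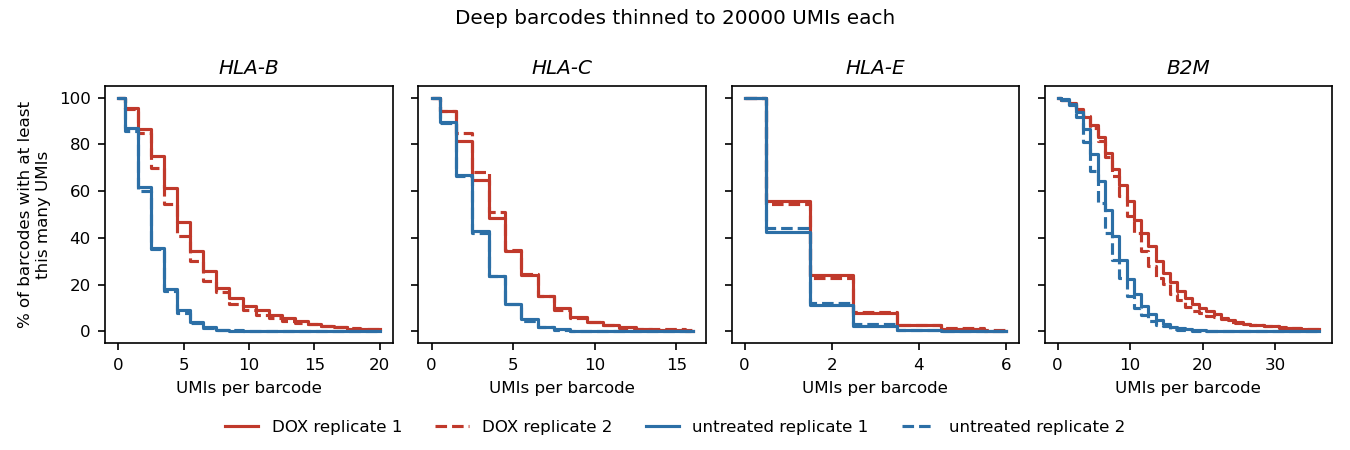
Share of deep barcodes (vertical axis, percent) with at least the number of UMIs on the horizontal axis, each barcode thinned to 20000 UMIs, for DOX (red) and untreated (blue) libraries, solid lines replicate 1 and dashed lines replicate 2. The DOX curves run to the right of the untreated ones for HLA-B, HLA-C, HLA-E and B2M, with 34.4% and 30% of DOX barcodes above 5 HLA-B UMIs against 4.00% and 3.46% of untreated barcodes.

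Across deep DOX barcodes the abundant class I genes varied together. Pearson's r of log2(UMIs + 1) at equal depth was 0.41 and 0.38 for HLA-B with HLA-C, 0.37 and 0.40 for HLA-B with B2M, and 0.35 and 0.39 for HLA-C with B2M in DOX replicates 1 and 2 (1307 and 1080 barcodes). The same pairs had r of 0.08 to 0.15 in the untreated libraries. Counts were lower there, and counting noise pulls r towards 0 more strongly at low counts, so these values are not compared further. HLA-E reached r of 0.19 to 0.21 with HLA-B in DOX, and every pair with HLA-F or NLRC5 stayed at or below 0.10.

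NLRC5 detection and class I RNA were then compared cell by cell. Between NLRC5 and the summed heavy chains and B2M, r was 0.04 and -0.05 in DOX and 0.01 and -0.00 in untreated libraries. Deep DOX barcodes with an NLRC5 UMI (151 and 148) had medians of 19 and 18 class I UMIs, and those without one (1156 and 932) also had 19 and 18. In untreated libraries both medians were 12 in replicate 1 and 11 in replicate 2. With so few NLRC5 UMIs per barcode a relation could be missed.

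**Figure D3:**
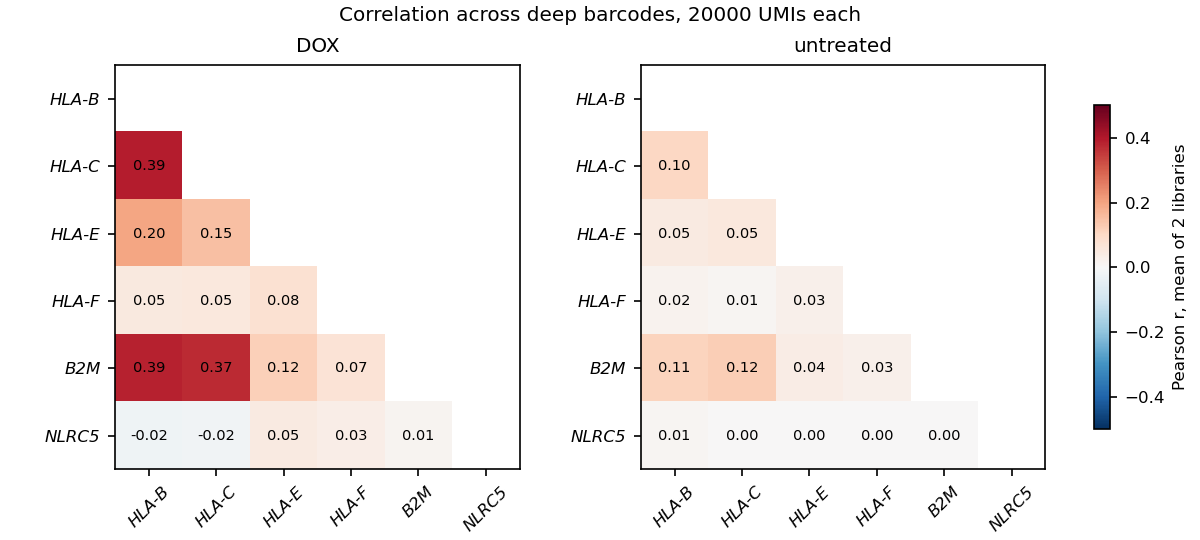
Pearson's r of log2(UMIs + 1) between each pair of the 6 genes across deep barcodes thinned to 20000 UMIs, as the mean of both DOX libraries (left) and both untreated libraries (right), colour from blue (negative) to red (positive). HLA-B, HLA-C and B2M stand out in DOX, with r of 0.35 to 0.41 in single libraries, and the NLRC5 row is near 0 in both groups.

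The genes most like the summed heavy chains and B2M across deep DOX barcodes were IFITM3, IFI6, ISG15, FAU and RPL41, with mean r over both DOX libraries of 0.53, 0.51, 0.50, 0.49 and 0.49. They were the top 5 among 8567 genes that had a UMI in at least 20% of barcodes of both DOX libraries, whose median r was -0.04. IFITM3, IFI6 and ISG15 are known as interferon-stimulated genes, while FAU and RPL41 encode ribosomal proteins. In untreated libraries r with the same sum was 0.11 and 0.15 for IFITM3, 0.08 and 0.12 for IFI6, and 0.14 and 0.18 for FAU. The share of ribosomal protein UMIs per barcode had r of 0.32 and 0.28 with the class I sum in DOX and 0.21 and 0.21 in untreated libraries, and its part in the class I values was not tested. For NLRC5 the 5 genes most alike were NFAT5, PARP9, RICTOR, HERC4 and DDX58, at mean r of only 0.15 to 0.16.

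Shallow barcodes, the bulk of the DOX libraries, gave class I chains a share of UMIs at least as large as in deep DOX barcodes, and NLRC5 a smaller one. B2M gave 1142 and 1089 CPM in shallow, 872 and 731 in intermediate, and 552 and 524 in deep DOX barcodes. The levels thus ordered with depth in both DOX libraries and the classes did not overlap. The share of all genes ordered or separated in this way was not counted. In untreated libraries B2M stayed near one level: 346 and 321 in shallow, 322 and 303 in intermediate, and 349 and 308 in deep barcodes. HLA-C gave 267 and 289.7 in shallow, 211 and 232 in intermediate, and 194 and 201 in deep DOX barcodes.

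The other heavy chains followed HLA-C only in part. HLA-B gave 274 and 275 CPM in shallow, 253 and 254 in intermediate, and 267 and 251 in deep DOX barcodes. Those levels were close to flat over the classes. HLA-E gave 51.6 and 54.7 in shallow, 40.5 and 45.5 in intermediate and 46.6 and 46.3 in deep DOX barcodes. HLA-F gave 11.0 and 11.9 in shallow, 10.3 and 5.79 in intermediate, and 5.12 and 6.16 in deep DOX barcodes. For both of these non-classical chains the shallow class was the highest in either library, an order whose share over all genes was not counted. NLRC5 went the other way, with 1.58 and 1.63 CPM in shallow, 5.92 and 3.31 in intermediate, and 6.78 and 8.08 in deep DOX barcodes, on only 10 and 9 UMIs in the shallow class. The ratio of HLA-B to HLA-C was 1.02 and 0.949 in shallow and 1.38 and 1.25 in deep DOX barcodes, and heavy chains per B2M were 0.529 and 0.579 in shallow and 0.930 and 0.963 in deep DOX barcodes.

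**Figure D4:**
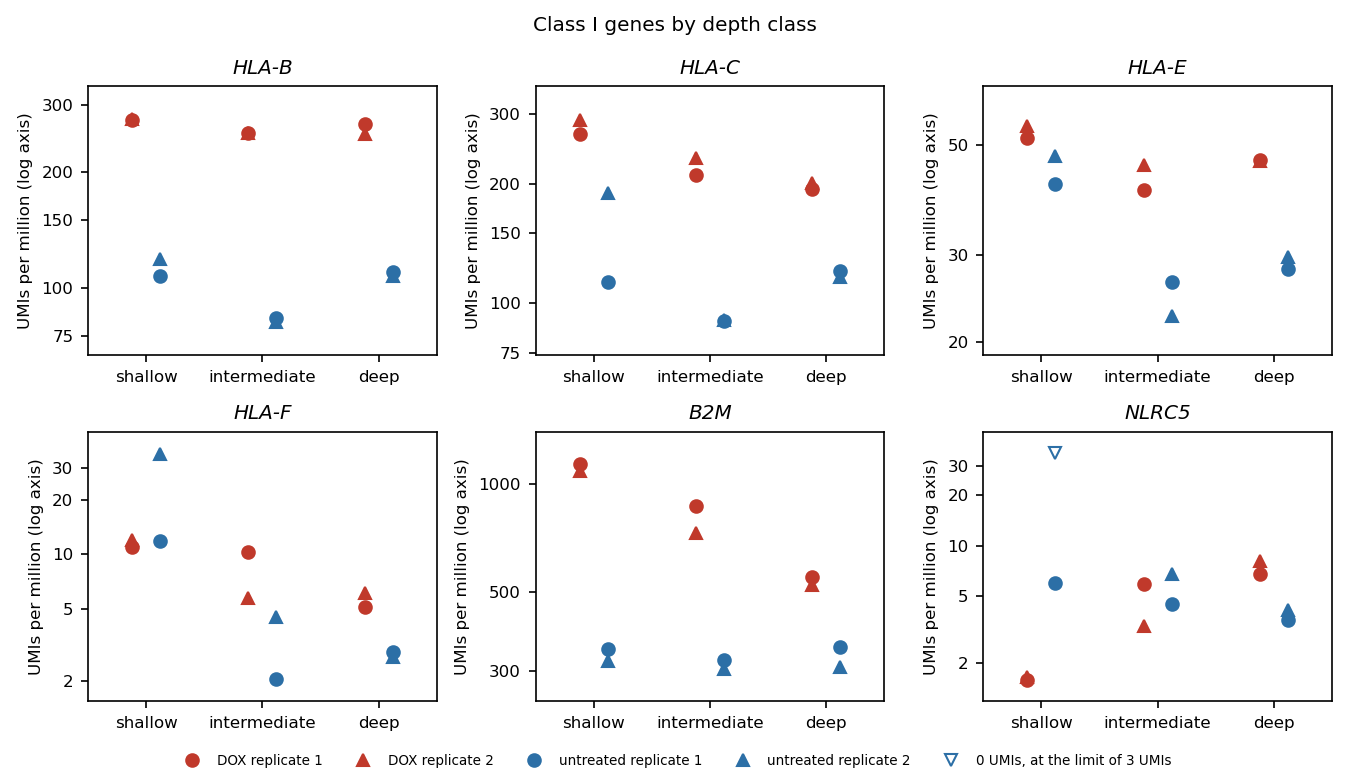
CPM (log axes) of each gene in shallow, intermediate and deep barcodes, red for DOX (left of each pair) and blue for untreated, circles replicate 1 and triangles replicate 2. B2M falls with depth in DOX (1142 and 1089 in shallow, 552 and 524 in deep) and NLRC5 rises; the open triangle marks a library with 0 NLRC5 UMIs, drawn at the limit of 3 UMIs, 35.6 CPM.

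Shallow barcodes were set against deep ones within DOX in 1 edgeR fit of 12 sums (4 libraries in 3 classes) with the library as a block. B2M, HLA-C, HLA-B, HLA-E and HLA-F were called higher, where 27.5% of 13774 genes were, and NLRC5 lower, where 28.8% were. The log2 fold change was 1.65 ± 0.09 for B2M (adjusted p = 7.98e-12, edgeR), 1.09 ± 0.09 for HLA-C (adjusted p = 1.68e-09) and 1.62 ± 0.30 for HLA-F (adjusted p = 7.88e-05). TMM factors raised every value in this comparison by 0.60 over the plain share of UMIs. On that plain share HLA-B (0.08, adjusted p = 0.387) and HLA-E (0.19, adjusted p = 0.177) were no longer called, while B2M (1.05), HLA-C (0.50) and HLA-F (1.03) were, and NLRC5 was called lower (-2.21). Of all genes 10.7% were then called higher and 53.6% lower.

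NLRC5 fell by 1.61 ± 0.39 on the log2 scale (adjusted p = 0.00134, edgeR), and without DOX replicate 2 it fell by 1.51 (adjusted p = 0.0543). Other features moved with depth. Ribosomal protein genes took 30.5% and 31.5% of UMIs in shallow and 21.6% and 21.4% in deep DOX barcodes, mitochondrial genes 1.74% and 2.00% in shallow and 4.89% and 5.09% in deep, and the nuclear RNAs MALAT1, NEAT1 and KCNQ1OT1 summed to 2387 and 3026 CPM in shallow and 9657 and 9397 in deep. Their part in the class I values was not tested. With ribosomal protein and mitochondrial UMIs left out of the library size, an alternative chosen after the data were seen, all 6 calls stood, with HLA-B at 0.21 and HLA-E at 0.32.

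Intermediate against deep DOX barcodes gave 2 calls among the 6 genes, where 12.2% of 13774 genes were called higher (8.80% on the plain share of UMIs). B2M was higher by 0.68 ± 0.09 (adjusted p = 1.64e-05, edgeR) and HLA-C by 0.27 ± 0.09 (adjusted p = 0.038). Only the B2M call held under all 9 alternatives, since HLA-C lost it under 6. HLA-B (0.08 ± 0.09), HLA-E (-0.01 ± 0.14), HLA-F (0.66 ± 0.35) and NLRC5 (-0.53 ± 0.37) did not pass.

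In untreated libraries none of the 6 genes was called between shallow and deep barcodes by edgeR, where 1.22% of 13774 genes were called in either direction. The shallow sums were small, from 27 UMIs (untreated replicate 2) to 58 (replicate 1) for B2M, and only HLA-F had an unadjusted p under 0.05 (log2 fold change 2.53 ± 0.89, adjusted p = 0.236, on 2 and 3 UMIs). DESeq2 gave an adjusted p for 3 of them, HLA-B, HLA-C and B2M, and called none. The log2 fold change of B2M was -0.30 ± 0.16 (adjusted p = 0.525).

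The difference between both contrasts, DOX minus untreated, was tested as an interaction in the same fit, and 3 of the 6 genes were called higher, where 13.5% of 13774 genes were (3.84% on the plain share of UMIs, with 19.2% lower). It was 1.95 ± 0.17 for B2M (adjusted p = 5.73e-08, edgeR), 1.17 ± 0.23 for HLA-C (adjusted p = 7.86e-04) and 0.96 ± 0.24 for HLA-B (adjusted p = 0.00581). On the plain share of UMIs B2M remained called (1.04, adjusted p = 1.29e-04), while HLA-C (0.26, adjusted p = 0.505) and HLA-B (0.05, adjusted p = 0.914) were not. The HLA-B call was also lost without DOX replicate 2 (0.83, adjusted p = 0.0756) and without untreated replicate 1 (1.06, adjusted p = 0.0758), and the HLA-C call without untreated replicate 1 (0.92, adjusted p = 0.0538). HLA-E (0.50 ± 0.39), HLA-F (-0.91 ± 0.82) and NLRC5 (-1.36 ± 1.72) did not pass. The forced barcode count, named for DOX libraries only, is a limit on this comparison too.

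To compare the share of barcodes with a UMI across classes, each barcode was thinned to 500 UMIs. B2M was then found in 43.9% and 42.9% of shallow, 37.2% and 32.2% of intermediate, and 24.0% and 22.1% of deep DOX barcodes. In untreated libraries it was found in 16.4% and 15.5% of shallow, 14.1% and 19.5% of intermediate, and 15.3% and 14.1% of deep barcodes. The exact 95% binomial intervals, which cover counting error only, were 42.4 to 45.4% and 41.4 to 44.4% for shallow DOX and 21.7 to 26.4% and 19.7 to 24.7% for deep DOX barcodes. Without thinning, B2M had a UMI in 80.1% and 74.1% of shallow and 99.8% and 99.7% of deep DOX barcodes, so the order of the classes by raw detection was set by depth.

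For HLA-B the thinned shares were 12.8% and 12.3% of shallow, 13.4% and 11.1% of intermediate and 12.2% and 11.1% of deep DOX barcodes, with overlapping intervals. In the deep untreated class they were 5.15% and 4.59%. HLA-C was found in 12.7% and 13.0% of shallow, 10.01% and 11.1% of intermediate and 8.72% and 8.89% of deep DOX barcodes, and in 6.38% and 5.90% of deep untreated ones. HLA-E stayed between 2.22% and 2.81% in all DOX classes.

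DOX was also compared with untreated cells within the less deep classes. The forced barcode count was named for DOX libraries only, so the shallow barcodes of both groups were not kept by the same rule. Whether shallow barcodes were whole cells was not tested. In shallow barcodes HLA-B, HLA-C, HLA-E and B2M were called higher, where 16.2% of 11009 genes were. TMM factors raised the log2 fold changes of the members here by 0.81 over the plain share of UMIs, on which 5.63% of genes were called higher and 26.8% lower. B2M gave 1142 and 1089 CPM in DOX and 346 and 321 in untreated libraries (log2 fold change 2.54 ± 0.19, adjusted p = 9.79e-37, edgeR). HLA-B gave 274 and 275 in DOX and 107 and 119 in untreated libraries (2.11 ± 0.25, adjusted p = 6.66e-16), and HLA-C 267 and 289.7 in DOX and 113 and 190.04 in untreated libraries (1.81 ± 0.23, adjusted p = 3.04e-13). On the plain share the log2 fold changes were 1.73 for B2M, 1.30 for HLA-B and 1.00 for HLA-C, and these 3 calls held under all 9 alternatives. HLA-E gave 51.6 and 54.7 in DOX and 41.7 and 47.5 in untreated libraries, on 7 and 4 untreated UMIs, and its call (1.09 ± 0.40, adjusted p = 0.0288) was lost on the plain share of UMIs (0.28, adjusted p = 0.664). HLA-F did not pass (0.02 ± 0.74, adjusted p = 0.989), and NLRC5, with 1 and 0 UMIs in untreated libraries, was too scarce to be tested.

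In intermediate barcodes 5 of the 6 genes were called higher in DOX, where 12.1% of 12131 genes were. On the plain share of UMIs the members' values were lower by 0.28 to 0.30, and 7.91% of genes were called higher and 18.6% lower. HLA-B gave 253 and 254 CPM in DOX and 83.6 and 81.4 in untreated libraries (log2 fold change 1.90 ± 0.19, adjusted p = 1.57e-04, edgeR). HLA-C (1.58 ± 0.19) and B2M (1.66 ± 0.20) rose too, and these 3 calls held under all 9 alternatives. HLA-E (1.03 ± 0.26, adjusted p = 0.0167) and HLA-F (1.96 ± 0.63, adjusted p = 0.0461) lost theirs under 6 and 7 of them, among these every setting without 1 library. NLRC5 did not pass (0.21 ± 0.58, adjusted p = 0.835). Barcodes of this class were not equally deep in both groups, with medians of 2349 and 2376.5 UMIs in DOX and 7798 and 3699 in untreated libraries.

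**Figure D5:**
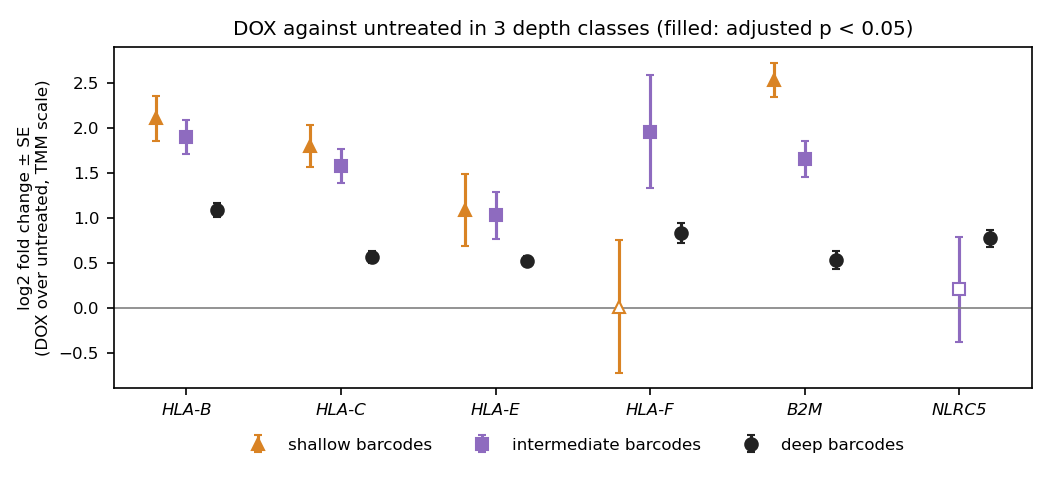
Log2 fold change of DOX over untreated (vertical axis, TMM scale, bars ± SE from edgeR, n = 2 libraries each) for each gene in shallow, intermediate and deep barcodes; filled symbols passed the adjusted threshold of 0.05. B2M is at 2.54 in shallow, 1.66 in intermediate and 0.54 in deep barcodes, and NLRC5 is called in the deep class alone. Each class has its own TMM shift: on the plain share of UMIs B2M is at 1.73, 1.35 and 0.71 and HLA-B at 1.30, 1.61 and 1.26, in the same order of classes, so HLA-B then shows no gradient with depth.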

How the data were processed

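The files hold raw UMI counts per gene and barcode, deposited by the authors for 2 DOX and 2 untreated libraries. The authors made these counts on hg19 with Cell Ranger (7.2.0 in the file headers, 7.0.0 in the submitters' processing notes, which also list CASAVA 1.8.2, SAMtools 1.2 and bedtools 2.25). Intron counting was not given in the sources used here. Another 6 bulk samples were not used here. Counts were summed per library and depth class and tested with edgeR 4.0.16 in R 4.3.3 (TMM factors, filterByExpr, quasi-likelihood test, p adjusted by Benjamini-Hochberg over all genes tested, threshold 0.05), and DESeq2 1.42.0 was an alternative. No doublets were called and no background RNA was taken off. The methods were tested on simulated data, where the deep fit recovered 83.6% of 1.5-fold and 100% of 2-fold changes. The fit of shallow against deep within DOX recovered 28.4% of 1.5-fold, 68.7% of 2-fold and 84.8% of 4-fold changes. The simulated spread between libraries was preset and not taken from these data. Members and gene lists were chosen with earlier results of these data known. Named were the 6 genes, 3 genes per list with the smallest adjusted p, the 5 genes most alike, and others after their values were seen. Positions are from GENCODE v44 lifted to hg19. Replicates differed beyond counting (chi-square per degree of freedom 8.63 for DOX and 52.4 for untreated). Python 3 was used with numpy, scipy, pandas and matplotlib. Counts over the interferon signal chain list are not reported here.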

Additional observations from a re-analysis of the deposited data

Results flagged for a closer look

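The contrast of shallow against deep barcodes differed between DOX and untreated libraries for 3 of the 6 genes by the interaction test of edgeR. Shallow barcodes of both groups were not kept by the same rule. The difference in log2 fold change was 1.95 for B2M (adjusted p = 5.73e-08), 1.17 for HLA-C (adjusted p = 7.86e-04) and 0.96 for HLA-B (adjusted p = 0.00581). On the plain share of UMIs B2M kept the call, at 1.04, and HLA-C and HLA-B lost it. Without untreated replicate 1 B2M was at 2.12 (adjusted p = 4.11e-04), and HLA-C and HLA-B were not called.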

How the results depend on the processing

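In deep barcodes all 6 genes stayed higher in DOX and called under all 17 alternatives, with log2 fold changes of 0.95 to 1.32 for HLA-B and 0.28 to 0.77 for B2M. With the replicate block, 12311 genes were called in the deep class, and no call among the 6 genes changed in any class. The labels do not say that a number marks a shared culture, and the deviations of replicate 1 in DOX and untreated libraries had r = 0.00662 across 21563 genes.

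Each comparison below had a setting in which the count of called genes moved by more than 1.5 times. The ranges given without 1 library also span fits that moved less. For intermediate DOX against untreated, 1368 genes were called by DESeq2, 4003 with no mitochondrial limit and 364 to 1780 without 1 library (2583 in the report's fit). Of the 6 genes 3 were called by DESeq2, on the plain share of UMIs and without any 1 library. For shallow DOX against untreated, 1519 to 2328 genes were called without 1 library (2979). For intermediate against deep within DOX, 950 to 3324 genes were called without 1 library (3144), and of the 6 genes 1 on the plain share, with no count filter, with no mitochondrial limit and with ribosomal protein and mitochondrial UMIs left out of the scale, and 1 to 2 without 1 library. For shallow against deep within untreated, 18 genes were called on the plain share, 1250 with no count filter (B2M then being called lower, at -0.69), 29 with no mitochondrial limit, 21 with the other scale and 53 to 122 without 1 library (168). For the interaction, 1523 to 2309 genes were called without 1 library (2690), and of the 6 genes 1 on the plain share and on the other scale, and 1 to 3 without 1 library. No result reversed. NLRC5 in shallow DOX against untreated had too few UMIs for a fit to compare with.

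Shallow untreated sums held 167869 and 84191 UMIs, so for the rare genes HLA-F and NLRC5 differences in that class were not detectable at this depth.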
